A study of Homo sapiens with 6 samples.

Results

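CDK12, CDK13 and CCNK are the genes of the kinase complexes that the inhibitor THZ531 acts on. The peaks of poly(A) 3′-seq reads at these genes in IMR-32 cells are described here. Not every such peak need be an end of their own transcripts, as the list gives no strand. All peaks of the deposited list whose summit lay in the annotated body of 1 of these 3 genes, or up to 4 kb past its 3′ end, were taken, which gave 72 of the 200023 peaks in the list. CDK12 held 21 of them, CDK13 held 39 and CCNK held 12. IMR-32 is an established human neuroblastoma line, and cells for poly(A) 3′-seq were incubated with the solvent DMSO (2 libraries), with 400 nM THZ531 over 2 h (2 libraries) or with 400 nM THZ531 over 6 h (2 libraries). The incubation time of the DMSO libraries is not given for each library. Per the study's methods, peaks were called once on reads merged over samples, taken here to be these 6 libraries. A value below therefore belongs to all libraries together: it carries no replicate error, and DMSO, 2 h and 6 h cannot be told apart.

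CDK12 and CDK13 are related cyclin-dependent kinases that phosphorylate the C-terminal domain of RNA polymerase II while it elongates. CCNK encodes cyclin K, the regulatory partner that both kinases need for activity. A transcript gets its poly(A) tail where it is cleaved downstream of a signal hexamer, most often AATAAA, and a gene can hold several such sites, in its last exon or inside introns. A site used inside an intron gives a shorter transcript that lacks the exons after it. The library kit primes with oligo(dT), which can also anneal to runs of A inside a transcript, so the bases on both sides of each peak are given with its height.

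The height used here is the number of reads at the summit, solved from the fold enrichment and the −log10 p-value in the list. Over the whole list it had a median of 11 reads, quartiles of 7 and 16, and a range from 3 to 200. The peaks of CDK12 had a median of 9 reads (range 4 to 23), those of CDK13 a median of 12 (3 to 28) and those of CCNK a median of 17.5 (10 to 43). With the −log10 q-value of at least 5 that the study required, 16 peaks of CDK12, 28 of CDK13 and all 12 of CCNK were kept. With at least 20, CDK12 kept 0 peaks, CDK13 kept 1 and CCNK kept 3. Intervals after a read count or a count of peaks are 95% exact Poisson intervals, those after a share are 95% Wilson intervals, and both cover counting error only. For heights they are nominal, since MACS2 counts reads with distinct start positions, and they do not measure the error of read numbers.

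All 3 genes lie on the plus strand of GRCh38. CDK12 (ENSG00000167258.16, chr17:39461486-39567559) spans 106 kb in the annotation, which includes transcripts that run past the end of the canonical one. CDK13 (ENSG00000065883.18, chr7:39950121-40099580) spans 149 kb and CCNK (ENSG00000090061.17, chr14:99481169-99535044) spans 53.9 kb. The canonical transcripts of CDK12 and CDK13 have 13 introns each and that of CCNK has 10. Placed on these transcripts, CDK12 had 12 peaks in introns, 4 in the last exon and 5 past the canonical end. CDK13 had 36 in introns and 3 in the last exon, with 0 past the canonical end. CCNK had 5 in introns, 3 in the last exon and 4 past the canonical end. Counted over all annotated transcripts, the intronic share was 71.4% (50.04 to 86.2) in CDK12, 82.1% (67.3 to 91.0) in CDK13 and 66.7% (39.1 to 86.2) in CCNK. Detected genes of the same quartile of length had median shares of 79.5% for the 2 kinases and 63.6% for CCNK, inside these intervals. These quartiles are wide, from 86.8 to 2474 kb for the kinases and from 36.3 to 86.8 kb for CCNK. The tallest peaks of CCNK lay in its last exon.

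**Figure D1:**
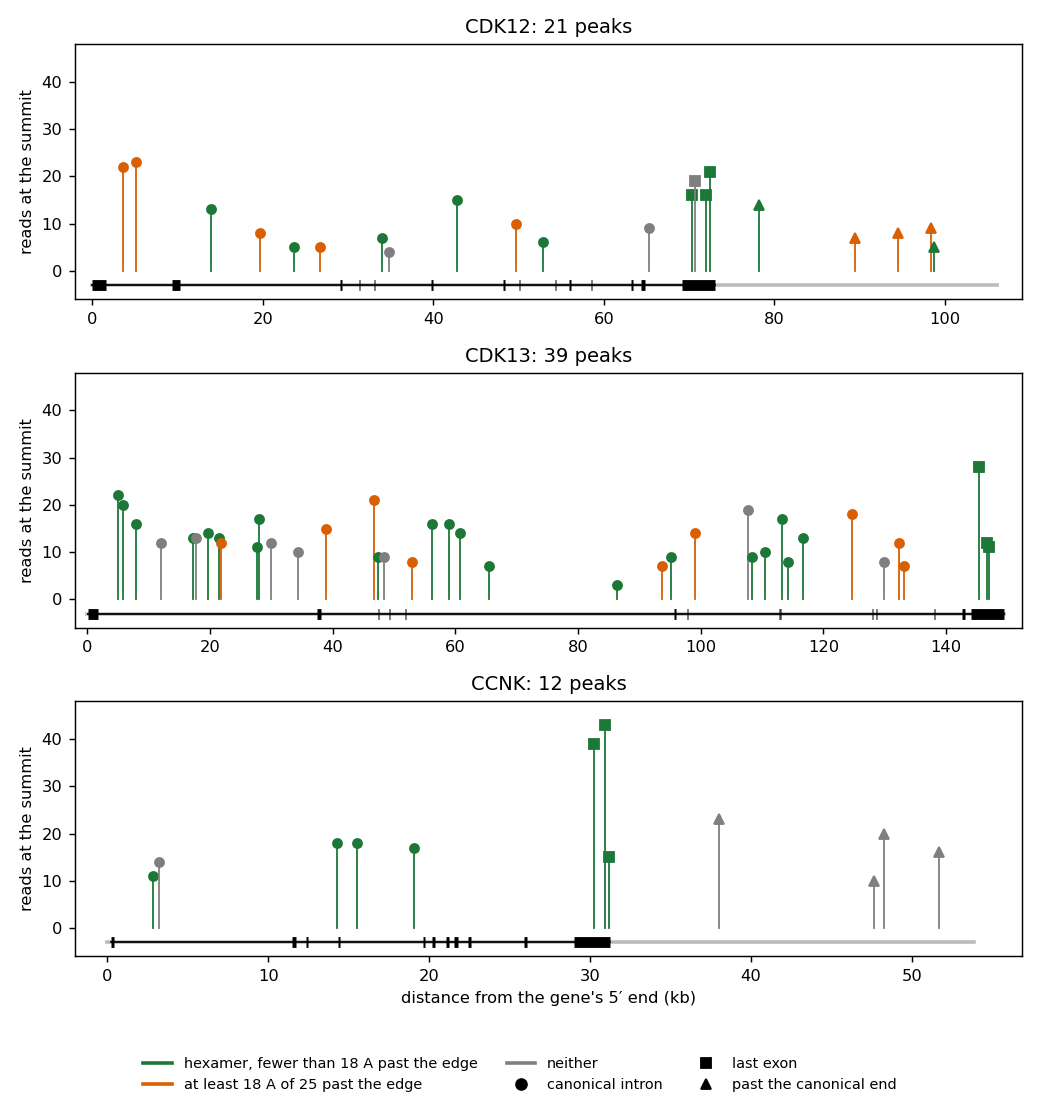
Peaks along CDK12, CDK13 and CCNK: each stem is a peak, the x axis is the distance from the 5′ end of the gene in kb and the y axis the reads at the summit in the merged libraries. Black blocks are exons of the canonical transcript, the grey line is the rest of the annotated gene, colour gives the sequence around the peak's 3′ edge and marker shape its place. The tallest peaks, with 43 and 39 reads, lie in the last exon of CCNK, where it overlaps the minus-strand gene CCDC85C. CDK13 has 36 intronic peaks from 3 to 22 reads.

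The last exon is where full-length transcripts end, and its 10 peaks are given first. As reads of this kit start at the cleavage site, the 3′ edge of a peak marks that site to within the peak caller's resolution. For 5 of them, and for 1 edge on the minus strand, the 30 bases that end at the edge are printed 5′ to 3′ as examples of the signal at such an end, with hexamers of the 12 searched in capitals. Sequences are from GRCh38, plus strand, except for the one marked minus.
CDK12 at chr17:39531847-39531876: atttgAATAAAtgtttctttcctctccacc
CDK12 at chr17:39533512-39533541: catcaaatatgAATAAAattctctatatat
CDK13 at chr7:40095523-40095552: tttctcttgatgcaacagtttTATAAAaaa
CDK13 at chr7:40097100-40097129: tgttttaaaaATTAAAtattttaTATAAAa
CCNK at chr14:99511484-99511513: cagttatccaAATAAAagcagttctgaaac
CCNK locus, minus strand, at chr14:99512031-99512060: taAATAAAggcctctttgtgagcctcctgg

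CDK12 had 4 peaks of like height in its last exon. In order along the gene they had 16 reads (9.15 to 26.0), 19 (11.4 to 29.7), 16 (9.15 to 26.0) and 21 (13.0 to 32.1), and all 4 intervals overlap. The first, shown above, has AATAAA starting 25 bases before its edge, and its edge lies 32 bases past the annotated end of a shorter transcript. The second has no hexamer of the 12 in its window and 65% A after its edge, which lies 14 bases before the annotated end of another transcript. This peak is 299 bp wide, with its summit at 39532225 and its edge at 39532463, so its 19 reads were counted away from that edge. The third has AATAAA 19 bases before its edge, and the fourth, the tallest, has AATACA 27 bases before. The edge nearest to the canonical end of CDK12 lay 508 bases short of it. No peak of CDK12 therefore fell within 100 bp of the canonical end, whereas 74.6% of the 12566 detected genes with an intron had one there. Past the canonical end, inside longer annotated transcripts, CDK12 had 5 peaks of 14, 7, 8, 9 and 5 reads, and 3 of these, with 7, 8 and 9 reads, hold 90% to 95% A after the edge. A gene was called detected when an annotated transcript end of it held a peak with −log10 q of at least 5.

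The tallest peak of CDK13 lay in its last exon, with 28 reads (18.6 to 40.5). Its edge lies 3 bases before the annotated end of a shorter transcript. It has TATAAA 9 bases before the edge and AATAAA 44 bases before. The other two last-exon peaks had 12 reads (6.20 to 20.96) and 11 reads (5.49 to 19.7), and both intervals overlap that of the tallest. The first of them has TATAAA 65 bases before its edge and 70% A after it, and the second has ATTAAA 20 bases before its edge. The last edge of CDK13 lay 2451 bases short of the canonical end, so the longest annotated 3′ untranslated region held no peak in its final part. The tallest peak of CDK13 was also the one peak of the gene with −log10 q of at least 20.

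The tallest peaks of the 3 genes lay in the last exon of CCNK, in a part that overlaps another gene, as described below. The peak at the end of a shorter annotated transcript had 39 reads (27.7 to 53.3), its edge lay 1 base before that end, and AATAAA starts 20 bases before the edge. The peak with 43 reads (31.1 to 57.9) lay further along the same exon, and the peak 14 bases short of the canonical end had 15 reads (8.395 to 24.7). The 15-read peak has AATATA 42 bases before its edge and 75% A after it. The intervals of the 39-read and the 15-read peak do not overlap. MACS2 counts reads with distinct start positions, so these heights do not measure how often each end was used.

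The 3′ part of CCNK overlaps CCDC85C, a gene on the minus strand that codes for a coiled-coil protein, and the list gives no strand. The left edge of the 43-read peak lies 1 base past an annotated end of CCDC85C on its strand, and read on the minus strand the sequence there has AATAAA 28 bases before that edge, as printed above. On the plus strand the same peak has AATAGA 9 bases before its right edge. The 17-read peak in intron 4 of CCNK reaches to 45 bases past the canonical end of CCDC85C. The 4 peaks past the canonical end of CCNK, with 23, 10, 20 and 16 reads, also lie inside CCDC85C. All 4 lack a plus-strand hexamer and have 15% to 25% A in the 20 bases past the right edge, whereas on the minus strand the 20 bases past the left edge hold 75%, 35%, 80% and 80% A. Which of the 2 genes gave these reads cannot be told apart. The 39-read and 15-read peaks lie in the overlap too. Of the 12 peaks of CCNK, 4 lie outside it, all of them in introns, with 11 to 18 reads.

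Inside the introns, the sites are shown by kind, since their sequences differed. Each line gives 40 bases up to the edge and the 20 bases after it, plus strand of GRCh38, with hexamers upstream of the edge in capitals. The first 5 are from CDK13 and have AATAAA in the usual place and few A after the edge. The third is a peak 274 bp wide with its summit at 40009004, so its 16 reads were counted away from the printed edge. The last, also from CDK13, runs into a genomic A stretch.
CDK13 intron 1, 14 reads, chr7:39969881-39969940: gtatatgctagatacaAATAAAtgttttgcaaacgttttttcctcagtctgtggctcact
CDK13 intron 5, 16 reads, chr7:40006362-40006421: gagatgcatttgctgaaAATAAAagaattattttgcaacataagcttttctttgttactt
CDK13 intron 5, 16 reads, chr7:40009217-40009276: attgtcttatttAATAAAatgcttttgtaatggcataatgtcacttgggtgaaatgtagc
CDK13 intron 5, 9 reads, chr7:40045275-40045334: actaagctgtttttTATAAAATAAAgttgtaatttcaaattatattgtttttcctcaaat
CDK13 intron 9, 13 reads, chr7:40066839-40066898: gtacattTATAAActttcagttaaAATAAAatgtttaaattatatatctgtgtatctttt
CDK13 intron 2, 21 reads, chr7:39996935-39996994: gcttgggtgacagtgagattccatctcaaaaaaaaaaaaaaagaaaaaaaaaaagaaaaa

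CDK12 had its tallest peaks in intron 1, and both run into A. The 12 intronic peaks lay in 7 of the 13 introns. Intron 1 held 2 peaks with 22 reads (13.8 to 33.3) and 23 reads (14.6 to 34.5), whose next 20 bases hold 90% and 100% A and which have no hexamer. Intron 2 held 4 peaks of 13, 8, 5 and 5 reads, intron 5 held 2 of 7 and 4 reads, and introns 6, 7, 8 and 13 held 1 each, with 15, 10, 6 and 9 reads. The 15-read peak of intron 6 has AAGAAA 8 bases before its edge and 55% A after it. The 13-read peak of intron 2 has AATAAA 11 bases before its edge and 70% A after it. Outside the A-rich sites, no intronic peak of CDK12 was taller than 15 reads, below the lowest last-exon peak of 16 reads, though these counts overlap within counting error.

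CDK13 had intronic peaks along its whole length, in 7 of its 13 introns. Intron 1, at 35.7 kb, held 13 of the 36, or 36.1% (22.5 to 52.4), on 25.6% of the intronic bases. Intron 5, the longest at 43.8 kb, held 8, or 22.2% (11.7 to 38.1), on 31.3% of the bases, so neither share was beyond its interval. The other peaks lay in introns 7 and 9 (4 each), 2 and 11 (3 each) and 3 (1). The 6 introns without a peak were up to 4.45 kb long. The tallest intronic peak of CDK13, 5.04 kb from the 5′ end of the gene, had 22 reads (13.8 to 33.3) and has GATAAA 17 bases before its edge, with 40% A after it. The next tallest had 21 reads in intron 2 (90% A after the edge, no hexamer) and 20 reads in intron 1 (AATGAA 20 bases before, 80% A). The 20-read peak is 440 bp wide, with its summit at 39955854 and its edge at 39956097, so its reads were counted away from that edge. The last-exon peak of 28 reads was above all 36 in value, but its interval overlaps that of the tallest intronic peak.

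The 5 printed CDK13 sites with AATAAA had 14, 16, 16, 9 and 13 reads, and the hexamer starts 24, 23, 28, 21 and 16 bases before their edges. The 20 bases after the edge hold 10%, 15%, 25%, 25% and 20% A, and the last-exon peaks of the 3 genes with AATAAA or ATTAAA starting 10 to 35 bases before the edge hold 10% to 25% there. The 5 sites were picked for few A after the edge, so this likeness was set by the choice. Over all 10 last-exon peaks the range was 10% to 75%. The 13-read site in intron 9 lies at the annotated end of a short transcript. The 14-read, 16-read and 9-read sites in introns 1 and 5 lie at no annotated transcript end.

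CCNK had intronic peaks in 3 of its 10 introns. Intron 1 held 11 and 14 reads, intron 3 held 18 reads at the annotated end of short transcripts, and intron 4 held 18 and 17 reads. The 18-read peak of intron 4 has AATAAA 20 bases before its edge, in a run of A, and 60% A after it. All 5 were lower in value than the 39-read peak, but the intervals of the 18-read peaks (10.7 to 28.4) overlap its interval.

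Over all canonical introns of the 3 genes, hexamers and A stretches mostly fell on different peaks. A hexamer was present at 5 of 12 intronic peaks of CDK12 (41.7%, interval 19.3 to 68.0), 21 of 36 of CDK13 (58.3%, 42.2 to 72.9) and 4 of 5 of CCNK. The same search gave 56.4% at 107351 intronic peaks of all detected genes and 84.7% at 17737 last-exon peaks. On the opposite strand, in the 100 bp before the left edge, a hexamer was present at 4 of 12 for CDK12. For CDK13 it was 18 of 36 (50%, 34.5 to 65.5) and for CCNK 3 of 5, against 37.5% of intronic peaks of all detected genes. The 2 intervals of CDK13 overlap, so a hexamer in this search is not by itself a sign of a used site. At least 18 A in 25 bases, within 50 bp past the edge, were present at 5 of 12 for CDK12, 9 of 36 for CDK13 (25%) and 0 of 5 for CCNK, against 28.4% of intronic peaks and 4.61% of last-exon peaks of all detected genes. The intervals of the 2 kinases hold the value of all genes in each case. Of the 53 intronic peaks, 29 had a hexamer without the A stretch, 13 had the A stretch without a hexamer, 1 had both and 10 had neither. This split was not counted over all genes, so it is not known to be particular to these 3. With at least 22 A in place of 18, the A stretch was present at 2 peaks of CDK12, 1 of CDK13 and 0 of CCNK. All 3 lacked a hexamer. Over all genes the share with this A stretch was 6.00%.

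AATAAA or ATTAAA starting 10 to 35 bases before the edge, with no stretch of 18 A, was found at 1 intronic peak of CDK12, 6 of CDK13 and 1 of CCNK. That is 15.1% of the 53, against 20.8% of intronic peaks over all genes and 51.8% of last-exon peaks. This narrower definition was chosen after the sequences had been seen. The 6 such sites of CDK13 had 9 to 16 reads, and they are the 5 printed above and a 13-read site in intron 1 with 75% A after its edge.

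**Figure D2:**
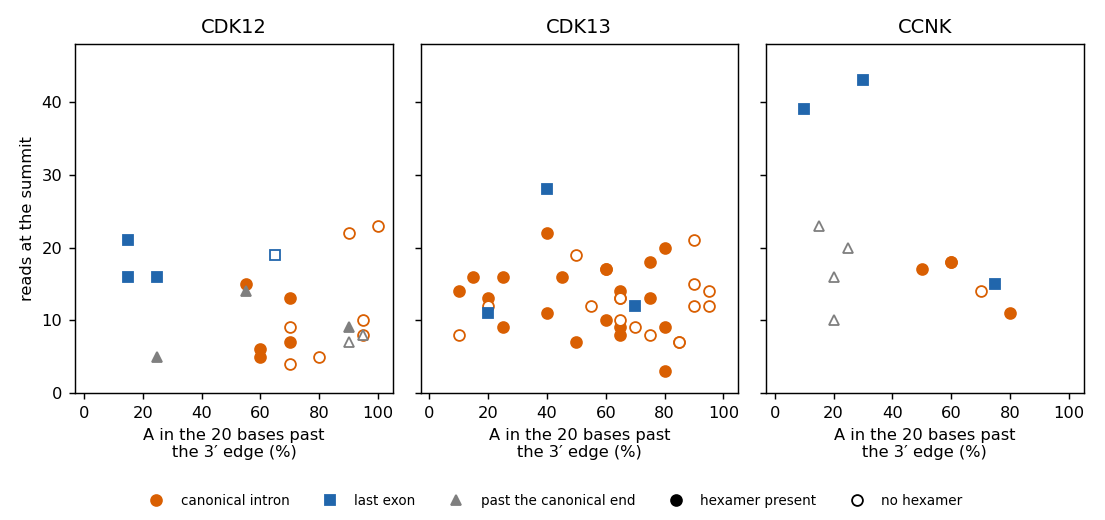
Bases after the edge and height, for the 72 peaks: the x axis is the percent of A in the 20 bases past the 3′ edge on the plus strand and the y axis the reads at the summit, with 1 panel a gene, colour and shape for the place and filled markers for peaks with a hexamer in the 100 bp before the edge. The 2 tallest intronic peaks of CDK12 stand at 90% and 100% A with no hexamer, and the 4 peaks past the end of CCNK stand at 15% to 25%.

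Several of the A-rich sites share the sequence of an Alu element. Alu elements are short repeats, abundant in human introns, that end in a run of A. The 9 bases CCAGCCTGG, part of the Alu consensus, were searched in the 100 bp before the edge on the plus strand, with up to 1 mismatch, after the sequences at these sites had been seen. They were found at 5 of 12 intronic peaks of CDK12, and these 5 were also its 5 sites with at least 18 A. In CDK13 they were found at 7 of 36, of which 4 were among its 9 A-rich sites, and in CCNK at 1 of 5. Over all intronic peaks of detected genes the share was 24.4%, and the 13 of 53 here were 24.5% (14.9 to 37.6). None of the 10 last-exon peaks of the 3 genes had it (interval 0 to 27.8%). That interval holds the intronic share, and last exons of all genes were not searched. The authors' mapping let a read match the genome at as many as 20 places, and 1 of the 72 peaks, the 8-read peak in intron 2 of CDK12, has another exact copy of its last 75 bases in the genome.

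The place of a site sets how much of the protein the shortened transcript could still code for. The canonical coding sequence has 1490 codons in CDK12, 1512 in CDK13 and 580 in CCNK. Both kinases bind cyclin K through a helix early in the kinase domain, and need the DFG motif further on to hold the magnesium of ATP. In CDK12 the helix motif starts at codon 768 and DFG at codon 877, and 6 of the 12 intronic peaks lay before the exons of the helix, 9 before DFG and 3 after it. In CDK13 the helix motif starts at codon 746 and DFG at codon 855, and 17 of the 36 peaks lay before the helix, 25 before DFG and 11 after it. The 13 peaks in intron 1 of CDK13 follow 403 codons, and the 2 in intron 1 of CDK12 follow 348. In CCNK all 5 lay early, after 0 to 137 of the 580 codons. Whether any such transcript is stable or translated is not measured in these libraries.

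CDK13 had more intronic peaks per kb than most detected genes of its length, and the place of CCNK among genes of its length depended on the cutoff. Intronic peaks were counted over all annotated transcripts and divided by intronic length. CDK13 had 32 such peaks, or 0.257 per kb (0.176 to 0.362). When detected genes were split by length into 4 groups of like size, the median number of intronic peaks was 0, 3, 7 and 20 from the shortest group to the longest. The 3142 genes in the group of CDK13, the longest, had a median of 0.137 per kb. As many or more peaks per kb were found in 60 of them, or 1.91%. With −log10 q of at least 5 the value of CDK13 was 0.176 per kb, and 194 genes (6.17%) reached it. Counted on canonical transcripts it was 0.258 per kb, and 138 genes (4.39%) reached it. Among the genes of that length group with a transcript-end peak of at least 28 reads, 35 of 1043 (3.36%) reached 0.257. No test was run, as genes in 1 merged set are not replicates.

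CDK12, in the same length group, had 15 intronic peaks and 0.161 per kb (0.0902 to 0.266), which 34.8% of genes reached. Among genes within 25% of the length of CDK12, 43.4% reached its value. The same match gave 2.01% for CDK13 and 43.0% for CCNK. CCNK had 8 intronic peaks and 0.175 per kb (0.0756 to 0.345), in the next shorter length group, where the median was 7 peaks and 0.159 per kb and 41.3% of genes reached its value. Of these 8, 4 lie past the canonical end inside CCDC85C, and the 17-read peak of intron 4 reaches past the end of CCDC85C. The value of CCNK therefore rests in part on peaks that cannot be assigned to it. On canonical transcripts it was 0.182 per kb, and 47.1% of genes reached it. With −log10 q of at least 5 the value of CCNK was the same, the median was 0.113 per kb, and 579 of 3141 genes (18.4%) reached it. The intervals of CDK12, CDK13 and CCNK overlap one another. The difference between the kinases in number, 15 against 32 intronic peaks, stood beside 93.1 and 124.7 kb of intron.

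**Figure D3:**
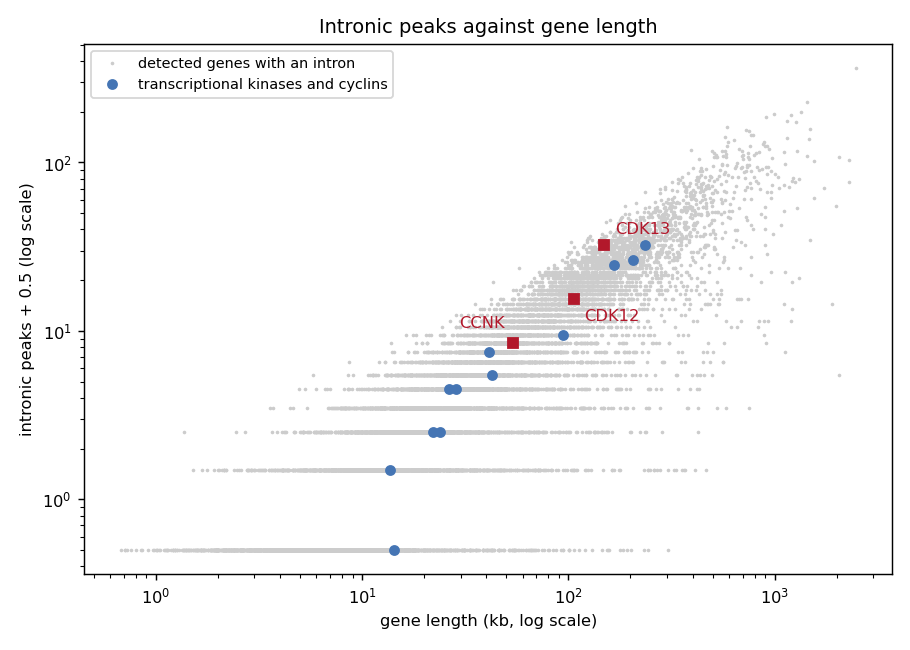
Intronic peaks against gene length: the x axis is gene length in kb and the y axis the number of intronic peaks plus 0.5, both on a log scale, for 12566 detected genes with an intron (grey), 12 detected transcriptional kinases and cyclins (blue) and the 3 genes described (red). CDK13, with 32 peaks on 149 kb, lies at the upper side of genes of its length.

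The height at transcript ends was compared with that in introns for each gene. Transcript ends here are those of all annotated transcripts, from 200 bp before to 600 bp after the end. The tallest was 19 reads in CDK12, 28 in CDK13 and 39 in CCNK, whereas the tallest intronic peak was 23, 22 and 23 reads. In CDK12 the intronic peak was taller in value, but the intervals overlap (11.4 to 29.7 and 14.6 to 34.5), and this peak has 100% A after its edge and no hexamer. The study's methods removed peaks with at least 22 A in 25 bases past them and no hexamer, and this peak meets that rule. Without it, the tallest intronic peak of CDK12 had 22 reads. Without the sites that have at least 18 A and no hexamer, the tallest intronic peak of CDK12 had 15 reads, below the 19 at a transcript end. With ends taken 100 bp either side, the tallest transcript-end peak of CDK12 had 16 reads. Placed on its canonical transcript, CDK12 had 21 reads in the last exon against 23 in an intron. Transcript ends had the taller peak in 69.5% of the 12566 detected genes with an intron. Detection itself required a transcript-end peak, and only 10540 of these genes had an intronic peak, so both limits raise this share. Within their length groups, 63.7% of genes had a transcript-end peak at least as tall as that of CDK12, 33.2% as that of CDK13 and 17.8% as that of CCNK. The 23-read intronic peak of CCNK is one of those inside CCDC85C with no plus-strand hexamer, and the tallest in a canonical intron had 18 reads.

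The other kinases and cyclins of transcription were taken as a list of 13 genes. CDK7, CCNH and MNAT1 form the kinase of the initiation factor TFIIH, CDK9 with CCNT1 or CCNT2 releases paused polymerase, CDK8 and CDK19 with CCNC belong to Mediator, and CDK11A and CDK11B pair with the L-type cyclins CCNL1 and CCNL2. They held 171 peaks in all, 12 of the 13 were detected and 11 had an intronic peak. CDK9 was the one not detected, with 5 peaks and 0 at a transcript end. The list had medians of 28.5 kb of gene, 4 intronic peaks and 0.131 intronic peaks per kb, with a highest value of 0.219 in CCNT2. The 0.257 of CDK13 was above the value of all 13, and its interval reaches down to 0.176, below that of CCNT2. Among the long genes of the list, CDK8 (167 kb) had 24 intronic peaks, CDK19 (206 kb) had 26, MNAT1 (235 kb) had 32 and CCNH (94.5 kb) had 9.

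In 10 of the 13 the tallest transcript-end peak was above the tallest intronic one. CCNH had 50 reads at a transcript end against 19 in an intron. CCNL1 had 55 reads at a transcript end and no peak classed as intronic over all transcripts, but 2 peaks in introns of its canonical transcript, the taller with 30 reads. CCNT1, with 18 against 31 reads, and CCNT2, with 21 against 25, had the taller peak in an intron by this measure. The measure depends on which ends are annotated: placed on canonical transcripts, CCNT2 had 52 reads in the last exon against 25 in an intron, and MNAT1 had 12 against 17. CDK11A and CDK11B are near-identical copies, so their reads may be shared between them. A peak edge within 100 bp of the canonical end was found in 10 of the 12 detected genes, and the exceptions were CCNT2 and MNAT1. CDK12 and CDK13 lacked one as well, and CCNK had one 14 bases short of the end.

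**Figure D4:**
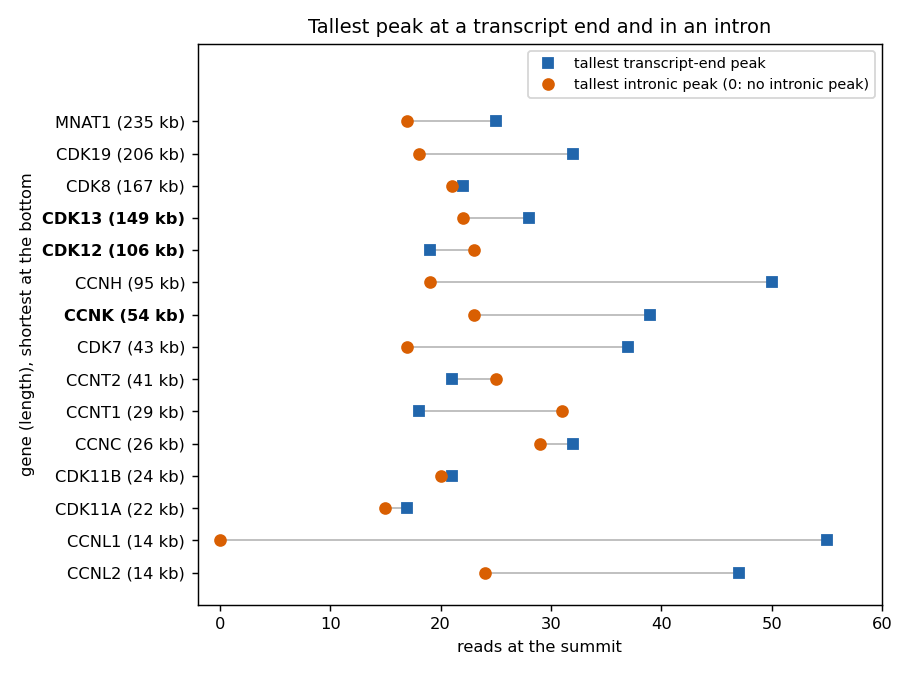
Tallest peak at a transcript end (blue squares) and in an intron (orange circles): the x axis is reads at the summit in the merged libraries and each row is a detected gene, ordered by length, with CDK12, CDK13 and CCNK in bold. CDK12, CCNT1 and CCNT2 have the taller peak in an intron (23 against 19, 31 against 18 and 25 against 21 reads), but on canonical transcripts CCNT2 has 52 reads in its last exon against 25, and the 23-read peak of CDK12 runs into A. CCNK has 39 reads at a transcript end against 23.

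The genes most like each member were found over 5 measures (length, numbers of transcript-end and intronic peaks, and the 2 tallest heights, each on a log2 scale and divided by its SD over genes). By Euclidean distance, CDK12 was nearest to POC1B (0.117) and CRTC3 (0.135), which have 14 intronic peaks each and tallest intronic peaks of 24 and 22 reads. CDK13 was nearest to ROCK2 (0.286), with 34 intronic peaks on 169 kb, and to ZHX3 (0.287). CCNK was nearest to CLN6 (0.0913) and IPO9 (0.109), each with 3 transcript-end and 8 intronic peaks. The distance between CDK12 and CDK13 was 1.01, and CCNK was 1.65 from CDK12 and 1.63 from CDK13.

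As a check of the cell type, transcript ends were looked up for genes of sympathetic neuroblasts and for 6 genes of other cells. The tallest transcript-end peak had 123 reads in PHOX2A, 71 in HAND2, 66 in GATA3 and 55 in ISL1, which encode transcription factors of these cells. It had 19 reads in DBH and 23 in TH, which encode enzymes of catecholamine synthesis. Of the other 6, EPCAM (7 reads) and COL1A1 (15 reads) were found.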

How the data were processed

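Libraries were prepared by the submitters from RNA of IMR-32 cells with a QuantSeq 3′ mRNA REV kit, in 3 groups of 2 replicates. Per the study's methods and the submitters' processing notes, reads were trimmed by the authors and aligned to GRCh38 with STAR 2.5.1b, allowing up to 20 placements; they were then merged over samples, and peaks were called with MACS2 2.1.1 on reads extended to 100 bp, with no control library. The deposited list gives for each peak a fold enrichment (a ratio of pileup plus 1 to background plus 1), a −log10 p-value, a −log10 q-value, a score and the offset of the summit. It holds no strand and no value of a single library, so the depth of each library is unknown, and no test between groups was possible.

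Reads at the summit were solved from the authors' fold and −log10 p, since MACS2 takes the latter from a Poisson tail. On simulated data (13119 peaks) 100% were recovered, and the largest misfit of −log10 p in the list was 0.000172. MACS2 counts reads with distinct start positions, so heights are capped. Gene models came from Gencode release 44 (release 27 in the study). Summits were classed, in order, as transcript end (200 bp before to 600 bp after any annotated end), exon, intron or downstream. Each of 12 signal hexamers, those of the study, was looked for in the last 100 bp of sequence before the 3′ edge, and A stretches (at least 22, or 18, A in 25 bases) within 50 bp past it. The study's methods removed peaks with at least 22 A there and no hexamer. By the definitions used here, 3 of the 72 peaks are of this kind, and they were kept in the counts. Without them the intronic share was 68.4% in CDK12 and 81.6% in CDK13. Coordinates are 1-based.

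The members and lists were chosen with earlier results of these data known. Named genes are the members, the listed kinases and cyclins, genes that overlap a member and the 2 nearest genes to each member. Python 3.11.15, pandas 2.3.3, scipy 1.17.1 and pysam 0.24.0 were used. Alternatives were cutoffs on −log10 q, merged peaks, other windows, places and transcripts, and other hexamer and A-stretch definitions. Some marker genes and site sequences are not reported here.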

Additional observations from a re-analysis of the deposited data

How the results depend on the processing

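No paired analysis was possible because every value is from merged libraries, and for the same reason no replicate could be left out. Of 92 alternative values, 72 stayed within 1.5 times of a count or inside the interval of a share, density or height, and 20 moved further. In 11 of these 20 the cutoff or the transcript set changed. With −log10 q of at least 20, CDK12 kept 0 peaks and 0 intronic peaks per kb. CDK13 kept 1 peak, with a hexamer (100%), an intronic share of 0% and 0 intronic peaks per kb. CCNK kept 3 peaks, with an intronic share of 33.3% and 0.0219 intronic peaks per kb. The cutoff itself removes the low peaks. On the canonical transcript alone, the intronic share of CDK13 was 92.3% and the tallest transcript-end peak of CCNK had 15 reads, as the 39-read peak lies at another transcript's end, while CDK12 and CDK13 had no transcript-end peak, so that no value was given. In the other 9 the searched sequence changed. With AATAAA only, the hexamer share fell to 19.0% in CDK12, 28.2% in CDK13 and 25% in CCNK, and with ATTAAA added it was 28.6%, 33.3% and 25%. With the window ending at the summit it was 41.0% in CDK13. With at least 18 A, the A-stretch share was 38.1% in CDK12 and 23.1% in CDK13. Leaving out peaks with 18 A and no hexamer was added after seeing the data: it gave 0.0967, 0.201 and 0.175 intronic peaks per kb in CDK12, CDK13 and CCNK, each inside the interval of the value reported. Depth limits single peaks: a height of 9 reads has an interval of 4.12 to 17.1.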
